A study of Mus musculus with 2 samples.

Results

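The genes described here are the NF-κB transcription factor subunits and their feedback regulators in mouse soft-tissue sarcoma cells, in 1 RNA-seq library of cells silenced for the circular RNA circCsnk1g3 and 1 library of control cells. They were chosen by gene symbol, and all 10 were found among the 25509 gene rows of the count table: the subunits Nfkb1, Nfkb2, Rel, Rela and Relb, the inhibitors Nfkbia, Nfkbib, Nfkbie and Tnfaip3, and the co-regulator Bcl3. All 10 were among the 12941 genes with at least 10 counts in a library, which are called the genes tested in what follows. Both libraries came from C57BL/6 p53-/- mesenchymal stem cells made to overexpress Ccne1, which had grown as subcutaneous tumors in primary recipients, been seeded in the lungs of secondary recipients and been recovered from the lung foci. The recovered cells were transduced with a lentiviral hairpin, either against the backsplice junction of circCsnk1g3 (shcircCsnk1g3) or the control hairpin (shCTR), so that by their labels both carried p53 loss and Ccne1 overexpression. The starting cells came from the long bones of p53 knockout mice, bought as young adult females, and had been sorted for Sca1 and PDGFRα and against CD45 and CD31, and the transduced cells were selected with puromycin. The time from transduction to RNA extraction and the number of cultures behind a library were not given in the sources used here, so the hairpin and any difference between the cultures cannot be told apart. With 1 library per group there was no replicate check and no test between the conditions, and no p-value is given.

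NF-κB is a dimer drawn from a family of subunits that share the Rel homology domain, which binds DNA. In resting cells most dimers are held in the cytosol by inhibitors of the IκB family. Signals from tumor necrosis factor, interleukin-1, Toll-like receptors or sensors of viral RNA activate the IκB kinase, which marks the IκB proteins for destruction and so frees the dimer. A slower arm runs through the kinase NIK and the processing of the Nfkb2 product, and yields dimers with RelB. The freed factor switches on the genes of its own inhibitors, among them Nfkbia, Nfkbie and Tnfaip3, so that the response ends. Proteins, their phosphorylation and their place in the cell were not measured by these libraries, which hold RNA with a poly(A) tail.

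Depth was similar, with totals of 38792143 counts for shcircCsnk1g3 and 42709996 for shCTR, and paired values are given in that order throughout. The count of linear Csnk1g3 was 2159 and 2411, and a circular RNA has no poly(A) tail, so depletion of the circle was not measured here. Trp53 had 3841 and 4334 counts and Ccne1 893 and 963. These are totals per gene, which do not show whether reads came from the part of Trp53 that a knockout removes, and no library without the Ccne1 vector was compared, so neither label was checked by them. The mesenchymal markers Vim, Col1a1, Col1a2, Prrx1 and Pdgfra were abundant in both libraries, although Thy1 was at 0 and 1 counts and 8 of the 9 tested markers were lower after silencing, most of all Ly6a, which encodes the sorting marker Sca1 (1854 and 3223 counts). Ptprc, Cd3e, Itgam, Lyz2 and Spi1, which define leukocytes, had at most 1 count in either library, and the 12 leukocyte markers summed to 57 and 115 counts, of which Laptm5 gave 45 and 102. Markers of endothelium summed to 17 and 27 counts, those of lung epithelium to 107 and 62, of which Krt8 gave 92 and 46, and Sftpc and Epcam were at 0. In bulk RNA, fewer cells that express a gene and less RNA per cell cannot be told apart.

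Several members are known to be switched on by NF-κB itself, so the bases before their transcription starts were searched for κB sites, the DNA element the dimers bind. RefSeq start windows on GRCm38.p6 were matched by symbol for 8 of the 10 members, not for Nfkb1 and Relb, with 11 windows in all because Nfkb2 has 3 starts and Tnfaip3 has 2. In the 250 bases before the start, the κB consensus was found on either strand in 5 of the 8 members, Nfkb2, Rel, Nfkbia, Nfkbie and Tnfaip3. It was not found in the windows of Rela, Nfkbib and Bcl3. Counted by window, 7 of the 11 held it. Of all 32851 RefSeq windows of this length 3.9% held the consensus, and of the 12280 windows of genes tested 4.58% did. A looser pattern, GGG followed by any 5 bases and CC, which includes every consensus match, was found in 7 of the 8 members, that is in at least 1 window of each, and in 45.8% of all windows and 61.2% of those of genes tested. A match is a run of letters and does not show that a factor binds there. The stretches below are given 5′ to 3′ on the strand of the gene, with the bases of the consensus matches in capitals, because these 5 genes hold both the largest and some of the smallest differences described afterwards. Where matches overlap, as they do on opposite strands for the near-palindromes of Nfkb2 and Rel, the capitals mark their union. Stretches that touch an annotated exon were kept to 30 bases or fewer. For each gene the matches before its most upstream start are printed. Further matches, 236 to 227 and 225 to 216 bases before the other starts of Nfkb2, are not.
Nfkb2, 39 to 29 bases before its first start (chr19:46304689-46304717, plus strand, 3 overlapping matches): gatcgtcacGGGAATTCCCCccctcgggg
Nfkb2, 11 to 2 bases before the same start (chr19:46304716-46304736, plus strand): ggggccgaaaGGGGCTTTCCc
Rel, 92 to 82 bases before its start (chr11:23771026-23771086, minus strand, 3 overlapping matches): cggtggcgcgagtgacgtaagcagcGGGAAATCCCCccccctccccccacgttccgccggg
Nfkbia, 29 to 20 bases before its start (chr12:55492648-55492701, minus strand): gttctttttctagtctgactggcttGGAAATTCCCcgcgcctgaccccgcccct
Nfkbie, 106 to 97 bases before its start (chr17:45555569-45555628, plus strand): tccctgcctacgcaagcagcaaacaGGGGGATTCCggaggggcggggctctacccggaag
Tnfaip3, 125 to 116 bases before its upstream start (chr10:19015516-19015545, minus strand): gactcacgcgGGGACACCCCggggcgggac
Tnfaip3, 12 to 3 bases before the same start (chr10:19015411-19015447, minus strand): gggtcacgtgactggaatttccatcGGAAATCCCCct

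**Figure D1:**
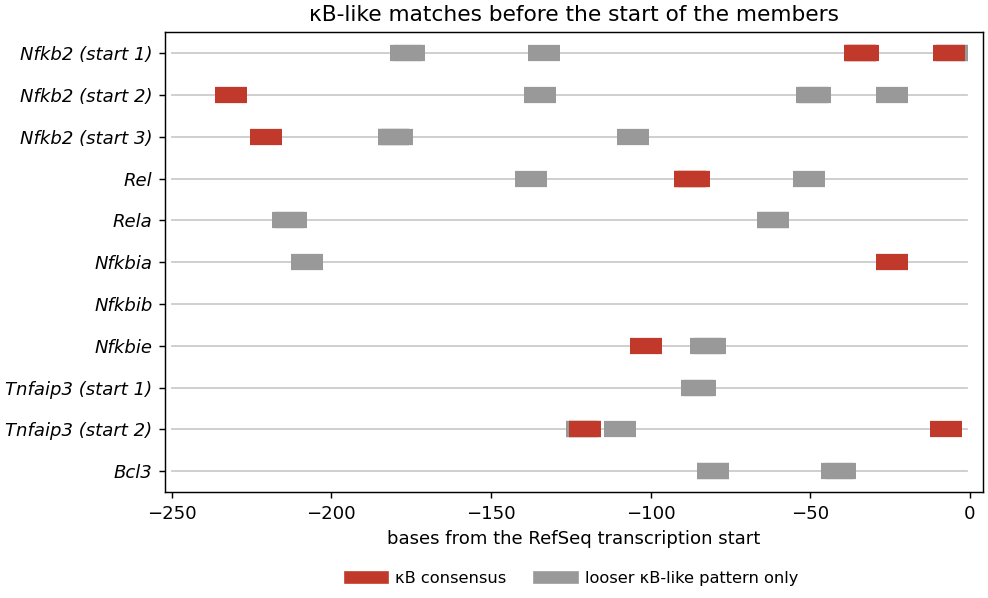
Each line is 1 RefSeq start window of a member, with the distance from the transcription start in bases on the x axis; red blocks mark matches to the κB consensus and gray blocks matches to the looser pattern only. Nfkb2, Rel, Nfkbia, Nfkbie and Tnfaip3 hold red blocks, and the closest to a start lie at Nfkb2 and Tnfaip3; the window of Nfkbib holds no block.

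After silencing of circCsnk1g3, 7 of the 10 members were above the control and 3 below it, and the differences were small. The largest was that of Tnfaip3, higher by 1.40-fold, followed by Nfkbie with 1.30-fold and Nfkbia with 1.23-fold, all feedback inhibitors. None of the 10 reached 1.5-fold in either direction, a fold that 5.39% of the genes tested passed upward and 6.31% passed downward. At 1.2-fold 3 members were higher and none was lower, against 15.7% and 16.4% of the genes tested. With libraries scaled by total counts alone, Rela and Relb passed 1.2-fold as well, with log2 fold changes of 0.29 and 0.28. The median log2 fold change was 0.22 over the 10 members and 0.00 over all genes tested. Folds are shcircCsnk1g3 over shCTR on TMM-scaled CPM, that is counts relative to the depth of the library after an adjustment for composition, and a prior count of 2 was added. The range in parentheses after a log2 fold change is a 95% Clopper-Pearson (exact) interval for the 2 counts, which compares these libraries and covers counting error only.

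The interval lay above 0 on the log2 scale for 7 members and below 0 for none, while over the genes tested it lay above 0 for 26.9% and below 0 for 28.2%. How small a difference such an interval can separate from 0 depends on the depth. Half-widths on the log2 scale narrowed from 1.42 at 10 counts per library to 0.415 at 100 and 0.128 at 1000. Of the members 9 had at least 1000 counts summed over both libraries, a limit set after the values were seen, and 8719 genes did. Among those genes the interval lay above 0 for 30.8% and below 0 for 33.0%, so more than 3 in 5 well counted genes differed between these libraries by more than counting error. Of the same genes 0.986% passed 1.5-fold upward and 1.86% downward, and at 1.2-fold 8.61% and 10.4% did. A log2 fold change above that of Tnfaip3 was found for 7.18% of all genes tested and 1.78% of the well counted ones, above that of Nfkbie for 9.95% and 3.64%, and above that of Nfkbia for 13.7% and 6.8%.

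**Figure D2:**
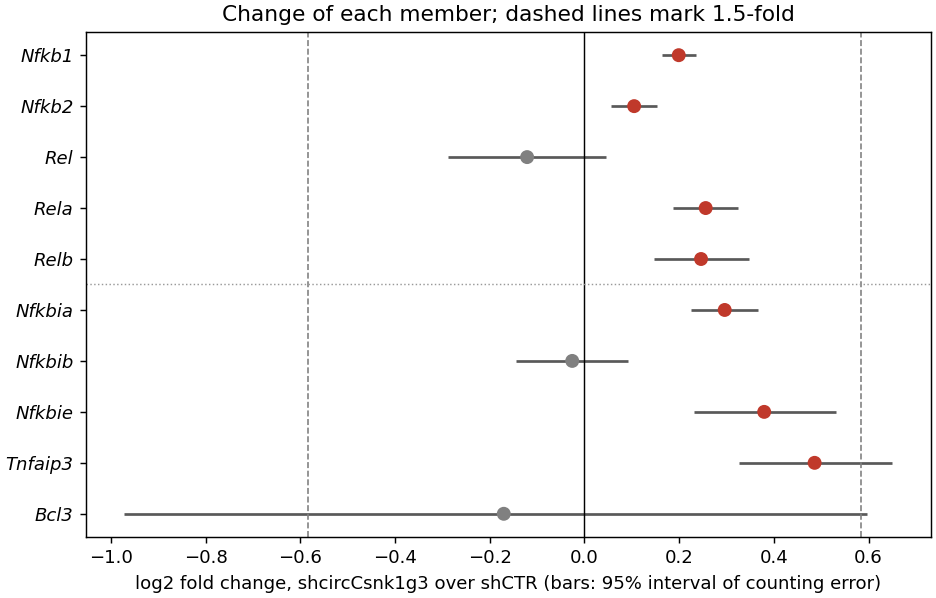
Points are the log2 fold change of each member, shcircCsnk1g3 over shCTR, and bars the 95% interval of counting error; red marks an interval above 0, gray one that holds 0, and dashed lines 1.5-fold. Tnfaip3 (0.49), Nfkbie (0.38) and Nfkbia (0.30) lie farthest to the right, and no point reaches a dashed line.

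**Figure D3:**
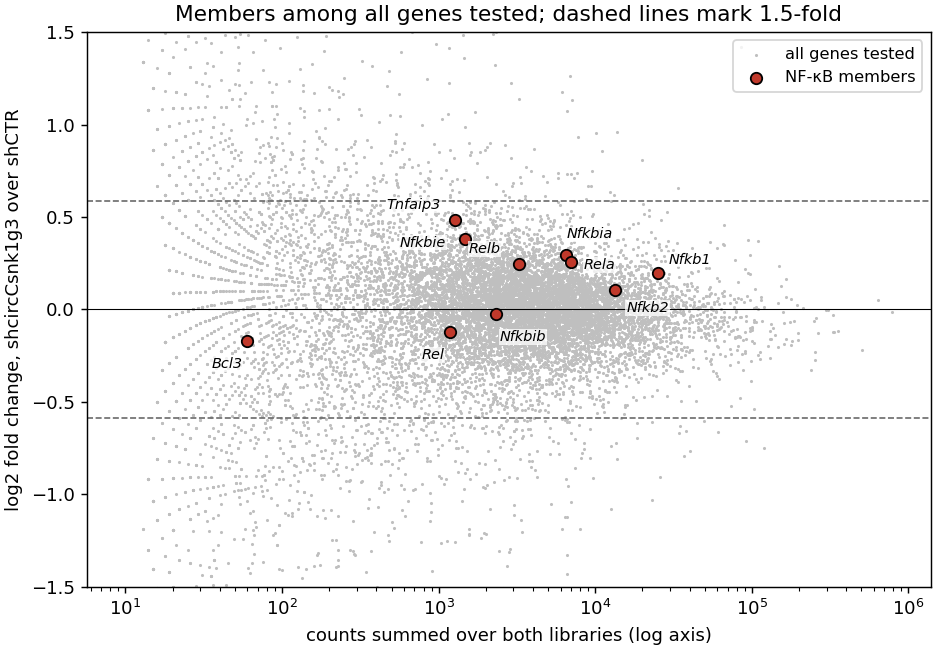
Each gray point is 1 of the 12941 genes tested, with counts summed over both libraries on a log x axis and the log2 fold change on the y axis, cut at 1.5 on either side, which leaves 251 genes outside. The red members lie within the dashed lines of 1.5-fold; 9 of them sit among the well counted genes and Bcl3 alone lies at the shallow end, with 60 counts.

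Among the subunits, Nfkb1 (ENSMUSG00000028163, chromosome 3, 135584655 to 135691547 on GRCm38, minus strand) encodes p105, which is cut to p50, the partner of RelA in the best known NF-κB dimer. It had 12876 counts after silencing and 12084 without it, or 328.3 and 286.0 CPM. Its log2 fold change was 0.20 (0.16 to 0.24). The silenced library was thus the higher one, by 1.15-fold, although its total was the smaller.

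Rela (ENSMUSG00000024927, chromosome 19, 5637483 to 5648130, plus strand) encodes p65, the subunit of that dimer that activates transcription. Its counts were 3678 and 3318, or 93.8 and 78.5 CPM, and its log2 fold change of 0.26 (0.19 to 0.32) was the largest of the 5 subunits. The interval of Nfkb1 overlaps that of Rela, and the ratio of Nfkb1 to Rela counts, which does not depend on the scaling between libraries, was 0.961 times that of the control (0.911 to 1.01).

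Relb (ENSMUSG00000002983, chromosome 7, 19606217 to 19629438, minus strand) encodes the activating subunit of the slower arm. It had 1710 and 1553 counts, or 43.6 and 36.8 CPM, with a log2 fold change of 0.25 (0.15 to 0.35), close to that of Rela. Its ratio to Rela was 0.993 times that of the control (0.913 to 1.08).

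Nfkb2 (ENSMUSG00000025225, chromosome 19, 46304320 to 46312385, plus strand) encodes p100, which holds RelB back until it is cut to p52. Its counts were nearly equal, 6706 and 6718, which after scaling gave 171.0 and 159.0 CPM. The log2 fold change was 0.10 (0.06 to 0.15), the smallest of the 7 positive values, and its ratio to Rela was 0.901 times that of the control (0.85 to 0.955). Exons of Nfkb2 overlap those of Psd on the opposite strand, which had 207 and 251 counts. A strand setting for the counting is not given in the sources used here.

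Rel (ENSMUSG00000020275, chromosome 11, 23736847 to 23770970, minus strand) encodes c-Rel, best known from lymphocytes and myeloid cells. It had 546 counts after silencing and 640 in the control, or 13.9 and 15.1 CPM, and a log2 fold change of -0.12 (-0.29 to 0.05). Its direction was not detectable at this depth. Relative to Rela it was lower, at 0.77 times the ratio of the control library (0.679 to 0.872), the lowest ratio among the subunits.

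Summed over the 5 subunits there were 25516 and 24313 counts, a log2 fold change of 0.18 (0.15 to 0.20). Nfkb1 gave 50.5% of these counts after silencing and 49.7% in the control, Nfkb2 26.3% and 27.6%, Rela 14.4% and 13.6%, Relb 6.7% and 6.39%, and Rel 2.14% and 2.63%. These shares of the counts therefore differed by little over 1 percentage point for any subunit. They depend on transcript length. Per kb of the longest annotated transcript the shares were 45.7% and 45.2% (Nfkb1), 25.7% and 27.1% (Nfkb2), and 19.9% and 19.0% (Rela). Those of Relb were 7.69% and 7.37%, and those of Rel 1.08% and 1.33%. The genes of the slower arm, Nfkb2 and Relb together, stood to Nfkb1, Rela and Rel together at 0.955 times the count ratio of the control (0.92 to 0.991).

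**Figure D4:**
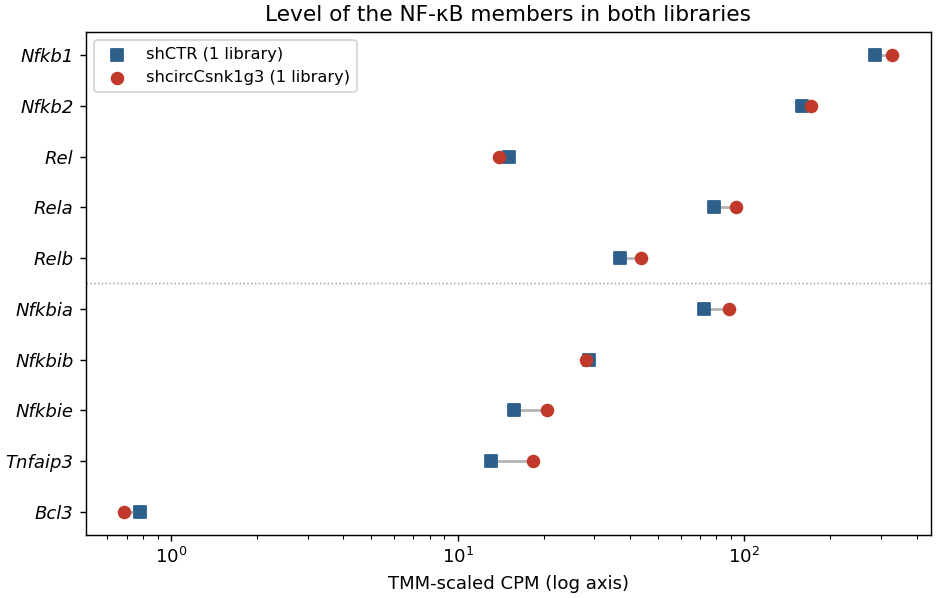
The level of each member in TMM-scaled CPM on a log x axis, blue squares for the shCTR library and red circles for the shcircCsnk1g3 library, with subunits above the dotted line and inhibitors and Bcl3 below it. The members span from under 1 CPM (Bcl3) to 328.3 CPM (Nfkb1 after silencing, 286.0 in the control). The gap between the libraries is widest for Tnfaip3 and Nfkbie.

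Of the feedback regulators, Tnfaip3 (ENSMUSG00000019850, chromosome 10, 19000910 to 19015657, minus strand) encodes A20, an enzyme that edits ubiquitin chains and stops signaling upstream of the IκB kinase. Silenced cells gave 721 counts and control cells 554, or 18.4 and 13.1 CPM. The log2 fold change of 0.49 (0.33 to 0.65) was the highest among the members, and the upper end of the interval lies beyond 1.5-fold. Against Rela it was 1.17 times higher than in the control (1.04 to 1.33).

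Nfkbie (ENSMUSG00000023947, chromosome 17, 45555703 to 45563169, plus strand) encodes IκBε, an inhibitor that is resynthesized after activation. Its counts were 806 and 667, or 20.6 and 15.8 CPM, with a log2 fold change of 0.38 (0.23 to 0.53). Its ratio to Rela was 1.09 times that of the control, with an interval that holds 1 (0.972 to 1.22).

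Nfkbia (ENSMUSG00000021025, chromosome 12, 55489410 to 55492647, minus strand) encodes IκBα, the best known feedback inhibitor, whose consensus match lies within 29 bases of the start. It had 3481 and 3054 counts, or 88.8 and 72.3 CPM, and a log2 fold change of 0.30 (0.23 to 0.37). It kept pace with Rela, with a ratio of 1.03 times that of the control (0.961 to 1.10).

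Nfkbib (ENSMUSG00000030595, chromosome 7, 28758251 to 28767512, minus strand) encodes IκBβ, an inhibitor less dependent on NF-κB for its own expression. It had 1104 and 1211 counts, or 28.2 and 28.7 CPM, and the log2 fold change was -0.03 (-0.14 to 0.09). Relative to Rela it was lower, at 0.822 times the ratio of the control (0.748 to 0.905). Its exons overlap those of Sirt2 on the opposite strand, with 1864 and 2151 counts.

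Bcl3 (ENSMUSG00000053175, chromosome 7, 19808462 to 19822770, minus strand) encodes a nuclear protein of the IκB family that binds p50 and p52 dimers, and lies 179.0 kb from Relb. With 27 and 33 counts, or 0.689 and 0.781 CPM, it was the least abundant member. The interval around its log2 fold change of -0.17 ran from -0.97 to 0.60, so that a 1.5-fold difference in either direction was not detectable at this depth.

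The 4 inhibitors summed to 6112 and 5486 counts, a log2 fold change of 0.26 (0.21 to 0.32). Set against the 5 subunits, their count ratio was 1.06 times that of the control library (1.02 to 1.11). The median log2 fold change was 0.20 for the subunits and 0.30 for the inhibitors with Bcl3. Nfkbia gave 57.0% of the inhibitor counts after silencing and 55.7% in the control, while the share of Nfkbib was 18.1% and 22.1%. The 5 members with a κB consensus had log2 fold changes of 0.49 (Tnfaip3), 0.38 (Nfkbie), 0.30 (Nfkbia), 0.10 (Nfkb2) and -0.12 (Rel), and the 3 searched members without one had 0.26 (Rela), -0.03 (Nfkbib) and -0.17 (Bcl3). Whether a match and a fold change are related was not tested.

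Levels of different members can be set side by side only per length of transcript. Per kb of the longest annotated transcript, Nfkb1 was the most abundant member of the control library, with 68.9 CPM per kb, followed by Nfkbia with 45.8, Nfkb2 with 41.3 and Rela with 28.9. Nfkbib (13.9), Relb (11.2) and Nfkbie (5.25) came next, then Tnfaip3 (2.12), Rel (2.03) and Bcl3 (0.422). The neighbors Tnfaip3 and Rel did not differ beyond counting error in the control (ratio interval 0.929 to 1.17), whereas after silencing Tnfaip3 was above Rel (2.97 and 1.86, ratio interval 1.42 to 1.78). After silencing, Nfkbib and Relb did not differ beyond counting error on this length (13.7 and 13.3, ratio interval 0.95 to 1.11). The order depends on the length used, and the longest transcript of Nfkb1, Relb, Nfkbie and Tnfaip3 is annotated as a retained intron, longer than the longest coding one (for Relb 3273 against 2209 bases, for Tnfaip3 6199 against 4422). Per kb of all annotated exons joined, 12061 bases for Nfkb1, this gene ranked 4 in the control with 23.7 CPM per kb, below Nfkbia (44.9), Nfkb2 (34.7) and Rela (25.6). On that length Nfkbib was above Relb after silencing (13.0 and 11.2, ratio interval 1.07 to 1.25). Rel then came before Tnfaip3 in the control, again without a difference beyond counting error (2.03 and 1.81, ratio interval 0.996 to 1.26). Tnfaip3 was above Rel after silencing on either length. The length of the longest coding transcript was not used. It is shorter for Tnfaip3 and Relb and would raise the levels of both, so these orders and ties hold only for the lengths shown.

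The rest of the pathway was described by 6 lists with 122 genes, of which 105 were tested. Past 1.5-fold, 9 of these were higher and 5 were lower, where 5.39% and 6.31% of all genes tested were. Among 16 IκB kinases and upstream kinases, 10 were higher and 6 lower, with a median log2 fold change of 0.04. The largest value belonged to Map3k14, which encodes NIK, the kinase of the slower arm, with 999 and 716 counts and 0.59 (0.45 to 0.73), at the very edge of 1.5-fold. The lowest was Tab3, an adaptor of the kinase TAK1, with 709 and 912 counts and -0.26 (-0.40 to -0.11). The core subunits of the IκB kinase differed by less than counting error: Chuk had 1527 and 1641 counts (0.00, -0.10 to 0.11), Ikbkb 2619 and 2941 (-0.06, -0.14 to 0.02) and Ikbkg 1908 and 2085 (-0.02, -0.11 to 0.07). These 3 genes were named after their values were seen.

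Of 23 adaptors and ubiquitin ligases, 16 were higher and 7 lower, none past 1.5-fold, with a median of 0.09. Rnf31, the catalytic subunit of the ligase that builds linear ubiquitin chains, was highest with 1737 and 1444 counts and 0.37 (0.27 to 0.48). Ube2n, the conjugating enzyme for chains linked through lysine 63, was lowest with 2867 and 4110 counts and -0.41 (-0.48 to -0.34). Of 19 other inhibitors of the pathway, 10 were higher and 9 lower, again none past 1.5-fold, with a median of 0.01. The extremes with at least 100 counts were Tnip2, a partner of A20, with 517 and 426 counts (0.39, 0.20 to 0.58), and Pdlim2, a ligase that removes nuclear p65, with 1326 and 1895 counts (-0.41, -0.51 to -0.31).

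Receptors that signal to NF-κB were present, but few of their ligands were. Of 18 receptors 14 were tested, 10 higher and 4 lower, with a median of 0.07. Tlr2, the receptor for bacterial lipopeptides, had 1673 counts against 972, with a log2 fold change of 0.89 (0.78 to 1.01). Cd40, also past 1.5-fold, had 18 and 11 counts, with an interval from -0.34 to 2.05. Tnfrsf9 was the lowest among the well counted receptors, with 3612 and 4687 counts and -0.27 (-0.33 to -0.21). Of 13 ligands only 3 reached 10 counts in a library, with a median log2 fold change of -1.30, which is the value of Il1a. The median was -0.68 where Il33 was left out by a minimum of 50 summed counts. Il1a, which encodes the cytokine interleukin-1α, was lower, with 77 and 208 counts and a log2 fold change of -1.30 (-1.72 to -0.94). Il33 had 2 counts after silencing, under the floor of 3 counts, and 14 in the control. Tnfsf12, the ligand TWEAK, had 529 and 595 counts (-0.06, -0.23 to 0.11), and Tnf itself had 4 and 8, too few to give a direction (interval -3.07 to 1.01). Cd40, Il33 and Tnf were named after their values were seen.

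NF-κB target genes other than the members went both ways. Of 33 listed genes 30 were tested, 14 higher and 16 lower, with a median of -0.11. Past 1.5-fold, 6 of the 30 were higher and 3 were lower, against 5.39% and 6.31% of all genes tested, and 0.986% and 1.86% of the well counted ones. Nos2, which makes nitric oxide, had 133 and 53 counts (1.40, 0.97 to 1.92), the acute phase gene Saa3 had 589 and 340 (0.90, 0.71 to 1.10), and the chemokine gene Ccl7 had 3987 and 2587 (0.73, 0.66 to 0.80). Cxcl10, a chemokine gene that interferon also switches on, had 1226 and 804 counts (0.71, 0.59 to 0.85). On the other side, Ptgs2, the inducible cyclooxygenase, had 32973 counts after silencing and 58229 in the control (-0.71, -0.73 to -0.69). Mmp3, a matrix protease, had 61 and 159 counts (-1.25, -1.73 to -0.84). The intervals of 11 target genes lay above 0 and those of 14 below 0, against 26.9% and 28.2% of all genes tested and 30.8% and 33.0% of the well counted ones.

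**Figure D5:**
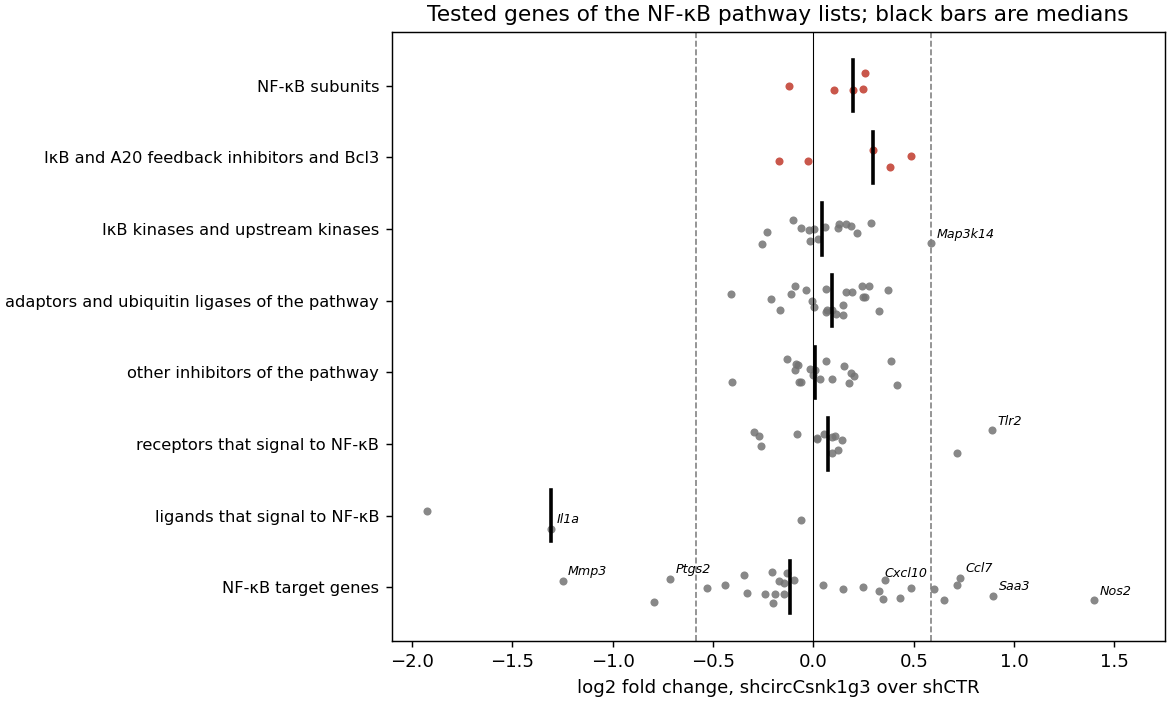
Each point is a tested gene of a pathway list, placed by its log2 fold change, shcircCsnk1g3 over shCTR; black bars are list medians, dashed lines mark 1.5-fold, and points are jittered vertically. The medians of the members' lists (red, 0.20 and 0.30) lie to the right of those of the kinases (0.04), adaptors (0.09), other inhibitors (0.01) and receptors (0.07), while the target genes spread from Mmp3 to Nos2 around a median of -0.11.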

How the data were processed

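Polyadenylated RNA of 1 shcircCsnk1g3 and 1 shCTR sample was sequenced. The authors aligned reads with STAR to GRCm38 and deposited estimated counts per gene from RSEM, rounded to whole numbers. The 92 spike-in rows, all at 0, were left out. The other deposited table is a scaled signal (TMM-scaled CPM) for 11624 genes, each column the counts times 1 constant, and was used as an alternative only. RSEM divides reads shared between genes, so counts of overlapping or similar genes depend on that step.

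TMM factors (edgeR 4.0.16, R 4.3.3) were computed over genes with at least 10 counts in a library; fold changes, intervals and figures used python 3.11.15, scipy 1.17.1 and matplotlib 3.10.9. Without replicates no dispersion can be estimated, so no test was made. Intervals cover counting error only, since each condition had 1 library. Reads without molecular identifiers are not independent molecules, so the intervals may be too narrow even for that. Ratios between members carry exact conditional intervals of the odds ratio. The fold changes and their intervals were tested on simulated counts that vary by counting error only. Such counts cannot show how well the intervals cover differences between cultures. Positions and lengths are from GENCODE M21, in which 25251 of 25509 identifiers were found, and start windows from RefSeq.

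Members and lists were chosen with earlier results of these data known. All members are named. From each other pathway list, up to 4 genes per direction past 1.5-fold with at least 100 summed counts are named, otherwise the most extreme; 6 others are named after their values were seen, as marked, as are the cell type markers given. Alternatives were DESeq2 1.42.0 size factors, total counts, prior counts of 0.5 and 10, the deposited scaled table, 3 other count filters, folds of 1.2 and 2, and another length.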

Additional observations from a re-analysis of the deposited data

How the results depend on the processing

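No paired analysis was possible because each condition had a single library, and for that reason no replicate could be left out. Of 269 values under the alternatives, 250 stayed within the counting interval or within 1.5 times the first count, and 19 moved. A list median has no counting interval, so the median half-width of the intervals of its genes was the limit. Many of the values could not move. The count filters do not alter the fold change of a member they keep, and length cancels in the change of a ratio between single members. A 2-fold threshold cannot add members that 1.5-fold did not call. Of 78 values of single members, 1 changed sign: Nfkbib, at -0.03, reached 0.01 with total counts, a setting that raised the median of all genes from 0.00 to 0.03. Tnfaip3 ranged from 0.48 to 0.52, Nfkbie from 0.38 to 0.41, Nfkbia from 0.29 to 0.33 and Rela from 0.25 to 0.29. Bcl3 was not in the deposited scaled table. No member passed 1.5-fold in any setting, and at a threshold of 1.2-fold 3 did, to which total counts added Rela (0.29) and Relb (0.28).

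All other values that moved belong to lists with few genes past 1.5-fold, and the filters change by construction which genes are counted. Kinases past 1.5-fold upward numbered 0 with DESeq2 size factors and with a prior count of 10, because Map3k14 sits at the edge. Receptors past it upward numbered 1 with a prior count of 10 and with minimums of 50 or 200 summed counts, and 5 (with 1 downward) without a filter. The median of the ligands, -1.30 over 3 genes at first, was -0.68 in the deposited table and with minimums of 50 or 200 (2 genes, 1 past 1.5-fold downward), and -0.66 without a filter (1 upward, 5 downward). For target genes, 5 were past it downward without a filter, and 3 upward with at least 200 summed counts. The share of all genes past 1.5-fold moved too, to 11.0% upward and 9.12% downward without a filter, 3.95% and 5.21% with a prior count of 10, 3.03% and 4.54% in the deposited table, 3.42% and 4.5% with at least 50 summed counts, and 1.99% and 3.14% with at least 200 summed counts. The depth limits Bcl3 and most ligands, whose counts leave intervals wider than 1 on the log2 scale.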
